A study of Mus musculus with 12 samples.

Results

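The endothelin system was read from the whole-lung arrays as every probe set whose annotation was exactly 1 of the symbols Edn1, Ednra, Ednrb and Ece1. A probe set is a group of short probes that reads 1 transcript region. The rule gave 7 of the 45101 probe sets of the table, 1 for Edn1, 3 for Ednrb and 3 for Ece1. It gave 0 for Ednra, so that gene is not analysed here, and 3 of the 18194 genes named on the array remain. The genes were chosen by the measured signal of Edn1, which was lower in Nfkb1-deficient than in wild-type lungs after ozone (O3), and that difference is therefore described and not tested. All 7 probe sets passed the filter on low signals.

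Edn1 encodes the precursor of endothelin-1, a vasoconstrictor peptide released by endothelial and epithelial cells. Furin-type proteases trim the precursor, and endothelin-converting enzyme 1, the product of Ece1, cuts the resulting big endothelin to the active peptide. The receptor encoded by Ednra acts on smooth muscle and raises its tone, whereas the receptor encoded by Ednrb, abundant on lung endothelium, triggers release of nitric oxide and prostacyclin and clears endothelin from the blood. The transcription of Edn1 is known to respond to cytokines, hypoxia and shear stress.

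The study asked how the lung responds to inhaled O3 with and without Nfkb1, the gene of the NF-kB subunit p105 and its product p50. It compared male mice 6 to 8 weeks old, either Nfkb1-/- (B6;129P-Nfkb1tm1Bal/J, here Nfkb1KO) or Nfkb1+/+ (B6129PF2/J, here WT). Each genotype was either kept in filtered air (WT-Air, Nfkb1KO-Air) or exposed without a break to 0.3 ppm O3 for 48 h (WT-O3, Nfkb1KO-O3), with 3 mice and 3 arrays per group. Total RNA came from the left lung of each mouse. The deletion is present in every cell and the stocks are of mixed background, so an effect of other linked or background loci and one of Nfkb1 cannot be told apart. The annotation named 0 probe sets for Nfkb1, so the genotype labels were not checked against its level. In homogenised lung, fewer cells of a type and less RNA per cell cannot be told apart.

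The lung markers Sftpc and Scgb1a1 lay at or above the 99.7th percentile of every array. The array of Nfkb1KO-Air replicate 1 stood apart, with a median deposited signal of 179.8 against 98.9 to 120.6 in the other 11 arrays. WT-Air replicate 3 held skeletal muscle RNA, with a log2 signal of 12.31 for the muscle myosin Myh4 against 0.67 to 7.94 elsewhere. The 4 poly-A control probe sets averaged a log2 deposited signal of 9.83 to 10.57 in the 6 air arrays and 9.29 to 9.96 in the 6 O3 arrays, and their part in the O3 differences was not tested. Values below are log2 signals after quantile normalisation, which gives every array the same distribution, unless they are called deposited signals. Errors of differences are standard errors (SE) from a limma model over all 12 arrays, and p-values are adjusted by the Benjamini-Hochberg method over 17569 genes. Levels of different genes are not comparable, since each probe set binds with its own strength.

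The promoter of Edn1, the member that set the choice, is shown for the elements that surround its annotated transcription start. The window runs from 250 bases before to 50 bases after the start site in the RefSeq annotation (GRCm38.p6, plus strand, chr13:42301226-42301525), 5′ to 3′, with the motif matches in capitals.
Edn1: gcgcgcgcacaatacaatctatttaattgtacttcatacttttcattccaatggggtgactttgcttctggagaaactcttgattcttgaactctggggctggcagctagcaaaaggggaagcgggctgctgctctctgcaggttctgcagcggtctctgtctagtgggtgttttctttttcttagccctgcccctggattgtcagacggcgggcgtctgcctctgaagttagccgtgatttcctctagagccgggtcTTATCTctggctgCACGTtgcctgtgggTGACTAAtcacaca
On both strands, 4 motifs were searched, with distances taken from the RefSeq start, which was not checked against other start sites. The AP-1 motif TGACTNA matched 36 bases after the start site on the plus strand, at chr13:42301512-42301518. The GATA motif AGATAA matched on the minus strand 8 bases after the start site (chr13:42301484-42301489), and the hypoxia-response core ACGTG matched on the minus strand 21 bases after it (chr13:42301497-42301501). These matches do not overlap each other. The NF-kB consensus was searched as GGGRNYYYCC, where R is A or G, Y is C or T and N is any base. It had 0 matches in this window, and other forms of the consensus and sequence outside the window were not searched. Of all 32851 RefSeq windows of this length, 13.9% held the AP-1 motif, 11.2% the GATA motif, 19.6% the hypoxia core and 5.8% the NF-kB consensus. The 1 window of Ednrb held none of the 4 motifs, and of the 4 windows of Ece1, 1 held the hypoxia core and none held the others. A match of letters is a description and not a binding site.

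Edn1 was highest in WT lungs after O3 and lowest in Nfkb1KO lungs after O3. Its log2 signals were 9.29, 9.42 and 9.67 in WT-Air and 9.89, 10.47 and 10.00 in WT-O3. They were 9.53, 9.18 and 9.10 in Nfkb1KO-Air and 9.12, 8.96 and 9.21 in Nfkb1KO-O3. Every WT-O3 array lay above every other array, and the other 3 groups overlapped their neighbours. The group means in deposited signal were 708 ± 98.1 in WT-Air, 1136 ± 258 in WT-O3, 627 ± 97.2 in Nfkb1KO-Air and 540 ± 48.5 in Nfkb1KO-O3 (SD, n = 3). WT-O3 replicate 2 was the highest single array, at a deposited signal of 1432 against 955 and 1022 in the other WT-O3 arrays.

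**Figure D1:**
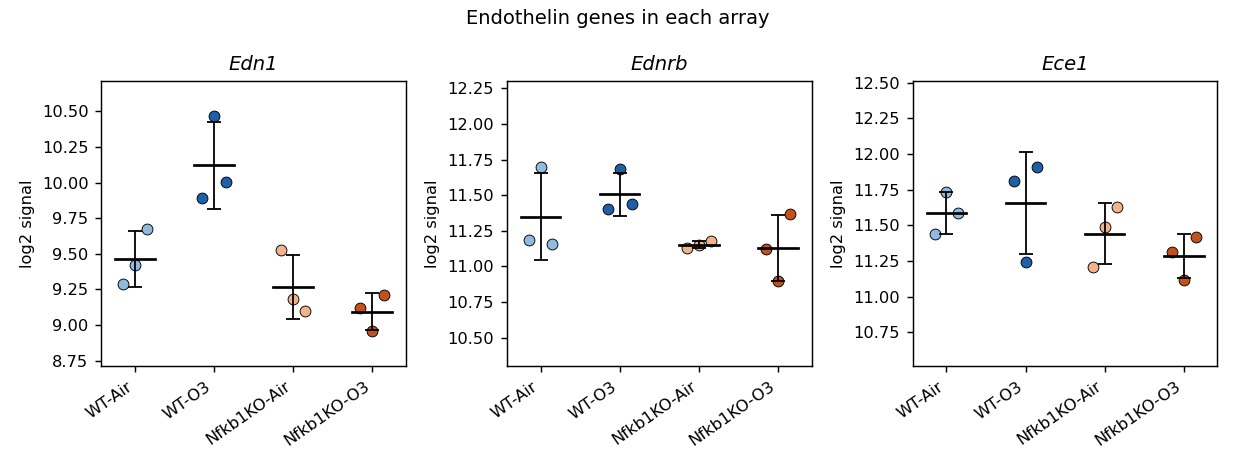
Log2 signal of Edn1, Ednrb and Ece1 in each of the 12 arrays, by group; points are arrays, lines are means and bars are SD (n = 3). The y axes span the same range but different levels. For Edn1 the 3 WT-O3 arrays sit at 9.89 to 10.47, above all others.

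After O3, Edn1 was 2.04-fold lower in Nfkb1KO than in WT, a log2 difference of -1.03 ± 0.17 (SE), the value on which it had been chosen. Leaving out 1 array at a time gave -1.14 to -0.85, the smallest without WT-O3 replicate 2. The difference was built from a WT level that was 0.66 ± 0.17 higher after O3 than in air (1.58-fold) and a Nfkb1KO level that was -0.18 ± 0.17 from its own air level. The latter became 0.16 when the arrays were centred on their medians instead, a scaling that moved the median of all genes from -0.01 to 0.25 in that comparison. The O3 change in Nfkb1KO minus that in WT was -0.84 ± 0.24, or -0.58 with arrays centred on their medians. Each of these uses arrays that entered the choice, so none was tested.

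In the mice kept in air, Edn1 did not pass the test between the genotypes. Nfkb1KO was -0.19 ± 0.17 from WT, with a 95% interval of -0.56 to 0.17 and an adjusted p of 0.71, which spans 0.68 to 1.13 times the WT level. In this comparison limma called 0.342% of all genes, and 0 of Edn1, Ednrb and Ece1. The methods' t-test with Benjamini-Hochberg adjustment called 0 of all genes, so its outcome for these 3 genes was fixed. None of the 3 had an unadjusted limma p under 0.05, the lowest being 0.21 for Ednrb. The group means of Edn1 ran in the order WT-O3, WT-Air, Nfkb1KO-Air, Nfkb1KO-O3, with steps of 0.66, 0.19 and 0.18 beside a pooled SD of 0.22. These are a description, since the O3 arrays of Edn1 entered the choice.

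Ednrb, the receptor gene, had the same order of group means as Edn1, but no step exceeded its pooled SD of 0.21. Its brightest probe set gave 11.19, 11.70 and 11.16 in WT-Air and 11.40, 11.68 and 11.44 in WT-O3. It gave 11.13, 11.15 and 11.18 in Nfkb1KO-Air and 11.12, 10.90 and 11.37 in Nfkb1KO-O3. The 3 Nfkb1KO-O3 arrays lay below all WT-O3 arrays, by a narrow gap, and WT-Air replicate 2 was the highest array of all. After O3, Nfkb1KO was 1.30-fold lower than WT, a log2 difference of -0.38 ± 0.15, given as a description. All 3 probe sets were lower after O3 in Nfkb1KO, by -0.34 to -0.42 on the log2 scale, and in none did the groups overlap.

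The tests on Ednrb that lay outside the choice found no call. In air Nfkb1KO was -0.20 ± 0.15 from WT (95% interval -0.52 to 0.12, adjusted p = 0.66 by limma), and without WT-Air replicate 2 that value was -0.02. O3 changed it by 0.16 ± 0.15 in WT (95% interval -0.16 to 0.48, adjusted p = 0.62 by limma), where 5.4% of all genes were called. In Nfkb1KO the O3 difference was -0.02 ± 0.15 (95% interval -0.35 to 0.30, adjusted p = 0.95 by limma), where 6.18% were called, and its sign turned to 0.42 with arrays centred on their medians and to 0.05 without quantile normalisation. The interaction of genotype and O3 was -0.18 ± 0.21 (95% interval -0.64 to 0.27, adjusted p = 0.91 by limma), turning to 0.17 with arrays centred on their medians, where 0.0342% of all genes were called. The other 2 probe sets had larger O3 differences in WT, 0.53 ± 0.26 and 0.37 ± 0.23, that did not pass the test over all probe sets either (adjusted p = 0.36 and 0.48 by limma), where 3.23% did. In air 1 of the 3 probe sets pointed the other way, at 0.14 ± 0.26.

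Ece1, whose product makes the active peptide, again had the highest mean in WT-O3 and the lowest in Nfkb1KO-O3, with overlapping groups. The brightest probe set read 11.44, 11.73 and 11.59 in WT-Air and 11.81, 11.25 and 11.91 in WT-O3. In Nfkb1KO it read 11.21, 11.49 and 11.63 in air and 11.32, 11.12 and 11.42 after O3. A single WT-O3 array, replicate 2, lay among the Nfkb1KO-O3 values, and it is the array in which Edn1 was highest. After O3, Nfkb1KO was 1.29-fold lower than WT (-0.37 ± 0.16, a description), or -0.58 without that array and -0.17 as the mean of its probe sets.

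None of the tested differences of Ece1 was called by limma. In air it was -0.14 ± 0.16 (95% interval -0.50 to 0.21, adjusted p = 0.78). In Nfkb1KO the O3 difference was -0.16 ± 0.16 (95% interval -0.51 to 0.20, adjusted p = 0.63), turning to 0.29 with arrays centred on their medians. The O3 difference in WT was 0.07 ± 0.16 (95% interval -0.29 to 0.42, adjusted p = 0.87) and had no stable sign, being -0.13 as the mean of the 3 probe sets and -0.06 without WT-O3 replicate 3. The interaction was -0.23 ± 0.23 (95% interval -0.73 to 0.27, adjusted p = 0.90), or 0.13 with arrays centred on their medians. The dimmest probe set of Ece1 reached only 3.93 to 5.75 and lay at or below the limit of low signal (4.37) in 1 of 12 arrays. It was the 1 of all 7 that was not lower in Nfkb1KO after O3, at 0.08 ± 0.52.

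**Figure D2:**
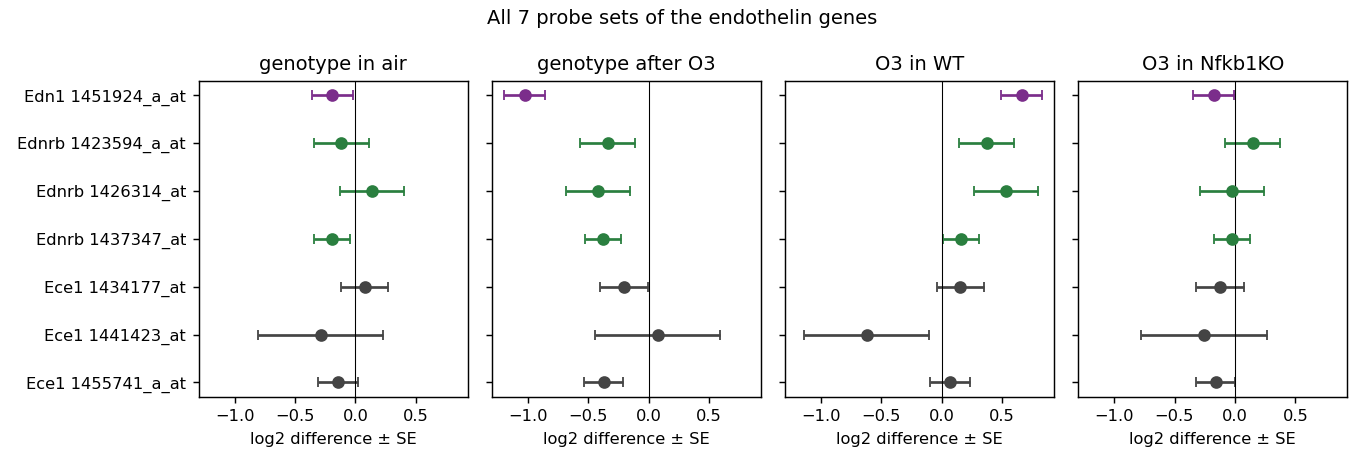
Log2 difference with its SE for each of the 7 probe sets in 4 comparisons, from left to right the genotypes in air, the genotypes after O3, and the O3 change in WT and in Nfkb1KO; negative genotype values are lower in Nfkb1KO. Edn1 stands farthest from 0 after O3, at -1.03, and the dimmest Ece1 probe set has the widest error, 0.52.

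Of the 7 probe sets, 6 were lower in Nfkb1KO than in WT after O3, and in 4 of them, Edn1 and the 3 of Ednrb, the groups did not overlap. Over all 42559 probe sets the groups did not overlap in 16.7% after O3, and nothing is read from the member count, since the choice used this comparison. In air the groups overlapped in all 7, against 12.2% of all probe sets without overlap. In WT with O3, 2 of the 7 did not overlap, Edn1 upward and the dim Ece1 probe set downward, against 23.7% overall. In Nfkb1KO with O3, 0 of the 7 did, against 21.9% overall.

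Markers of the cells that carry these genes are given beside them. Of 14 endothelial genes, 12 were lower in Nfkb1KO than in WT after O3, with a median log2 difference of -0.27 against 0.0031 over all genes, and 0 were called by limma. The sum of their normalised signals, on the linear scale, ran from 49277 to 52624 in WT-O3 and from 37581 to 50835 in Nfkb1KO-O3. In air it ran from 50675 to 69656 for the WT and from 50740 to 55824 for the Nfkb1KO arrays. The lowest sum was that of Nfkb1KO-O3 replicate 2, an array that also held the most cardiac marker signal of the O3 arrays (a sum of 112746 over 8 genes, against 8628 to 39018) and the lowest Edn1, Ednrb and Ece1. Without it, the genotype differences after O3 were -0.96 for Edn1, -0.26 for Ednrb and -0.29 for Ece1. With O3, Kdr fell in WT, and Cdh5, Kdr and Tie1 fell in Nfkb1KO, where the 14 genes all had negative differences and 2.83% of all genes fell. The call of Cdh5 was lost in 18 of 23 alternatives, and with arrays centred on their medians 0 of the 14 were called in either genotype. The defining marker Pecam1 was between 11.74 and 12.51 in every array. The 4 markers of aerocytes, the alveolar capillary cells in which Ednrb is known to be strong, were all lower in Nfkb1KO after O3, by a median of -0.26, and none of these was called.

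Smooth muscle markers, of the cells on which endothelin-1 acts, had calls in Nfkb1KO. With O3 in Nfkb1KO, 5 of 12 fell, namely Acta2, Actg2, Cnn1, Myh11 and Tagln, genes of the contractile apparatus, against 2.83% of all genes, with a median of the 12 at -0.61. With arrays centred on their medians 0 of the 12 were called (Tagln went from -0.70 to -0.23 and Acta2 from -0.80 to -0.31), and without Nfkb1KO-O3 replicate 2 there were 6. In WT 0 of the 12 were called by limma. The sum of their normalised signals, on the linear scale, was 19538 to 20907 in Nfkb1KO-O3, below every other array. In WT-O3 it was 21484 to 26991. The WT-Air arrays held 23752 to 33598, and those of Nfkb1KO-Air 30459 to 36807. Among 10 airway epithelial markers, Krt8 and Krt18 rose with O3 in WT, where 5.4% of all genes were called. In Nfkb1KO Krt18 rose and Foxj1 fell, where 6.18% were called. Negative differences were held by 6 of the 10 in WT and 5 in Nfkb1KO. With arrays centred on their medians 0 of the 10 were called in either genotype. The Nfkb1KO calls of Krt18 and Foxj1 were lost in 9 and 7 of 23 alternatives, and each WT call in 1. The summed signal of the 10 overlapped in all groups. The part of these shifts in the Edn1, Ednrb and Ece1 values was not tested.

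**Figure D3:**
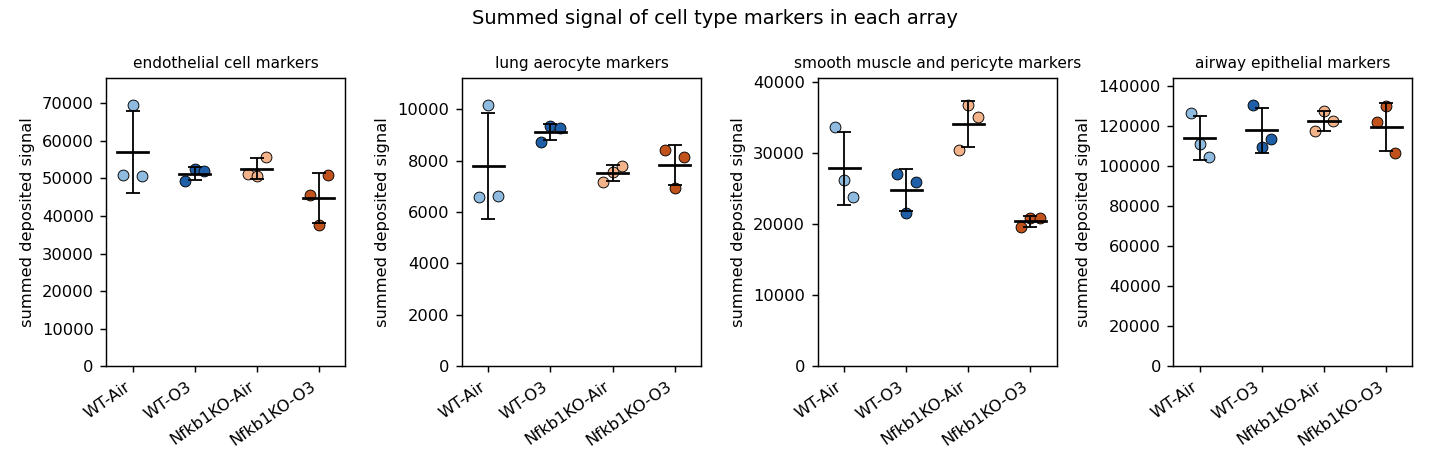
Summed normalised signal, on the linear scale, of the endothelial (14 genes), aerocyte (4), smooth muscle and pericyte (12) and airway epithelial (10) markers in each array. Points are arrays, lines are means and bars are SD (n = 3). The y axis label reads deposited, but the sums are of quantile-normalised signals. The smooth muscle sum is lowest in the 3 Nfkb1KO-O3 arrays, at 19538 to 20907.

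The other ligands and processing enzymes were all measured, and 1 of the 6, Ece2, was called with O3, against 5.4% of all genes in WT and 6.18% in Nfkb1KO. Ece2 encodes another converting enzyme, which acts at acidic pH inside cells. Its log2 signals were 8.14, 7.90 and 7.84 in WT-Air and 8.57, 8.43 and 8.45 in WT-O3. In Nfkb1KO they were 7.79, 7.96 and 7.86 in air and 8.57, 8.54 and 8.59 after O3. Every O3 array lay above every air array. It rose with O3 by 0.53 ± 0.14 in WT (1.44-fold, adjusted p = 0.048 by limma) and by 0.69 ± 0.14 in Nfkb1KO (1.62-fold, adjusted p = 0.013), and the interaction was 0.17 ± 0.20 (adjusted p = 0.91). Its second probe set went the other way in WT, at -0.88, which turned the mean of both to -0.18 (adjusted p = 0.82), and the call in WT was lost in 18 of 23 alternatives. In Nfkb1KO the mean of both was 0.53 and was not called (adjusted p = 0.33 by limma), and the call was lost in 4 of 23 alternatives.

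Edn3, the gene of endothelin-3, the ligand that prefers the receptor encoded by Ednrb, was lower in every Nfkb1KO-Air array than in any WT-Air array. It read 7.83, 8.03 and 8.07 in WT-Air, 6.67, 7.50 and 7.43 in Nfkb1KO-Air, 7.55, 7.76 and 7.76 in WT-O3 and 7.80, 7.42 and 7.56 in Nfkb1KO-O3. The difference in air, -0.78 ± 0.23, did not pass the test (adjusted p = 0.22 by limma), and after O3 the genotypes overlapped. Its lowest array was Nfkb1KO-Air replicate 1, the one that stood apart. Mme, the gene of neprilysin, a peptidase that degrades endothelins, was 11.80, 11.85 and 12.07 in WT-Air against 11.55, 11.43 and 11.73 in Nfkb1KO-Air. After O3 it was 11.83, 11.75 and 12.13 in WT against 11.59, 11.46 and 11.58 in Nfkb1KO. The genotypes did not overlap in either condition, and neither difference passed the test (-0.34 ± 0.11 in air, adjusted p = 0.28, and -0.36 ± 0.11 after O3, adjusted p = 0.25, both by limma). With O3 in WT Mme was -0.0039 by its brightest probe set and 0.87 by the other, and the mean of both was called (0.43, adjusted p = 0.048 by limma).

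Edn2, the gene of a further ligand, lay at 4.80 to 6.56 and was highest in Nfkb1KO-Air replicate 1, the array that stood apart. Furin, which trims the precursors, stayed within 9.96 to 10.45 over all 12 arrays. Kel, the gene of a red cell endopeptidase that cuts big endothelin-3, was low and scattered, at 2.61 to 5.60, with 3 arrays at or below the limit of low signal. None of these 3 was called by limma in any comparison.

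**Figure D4:**
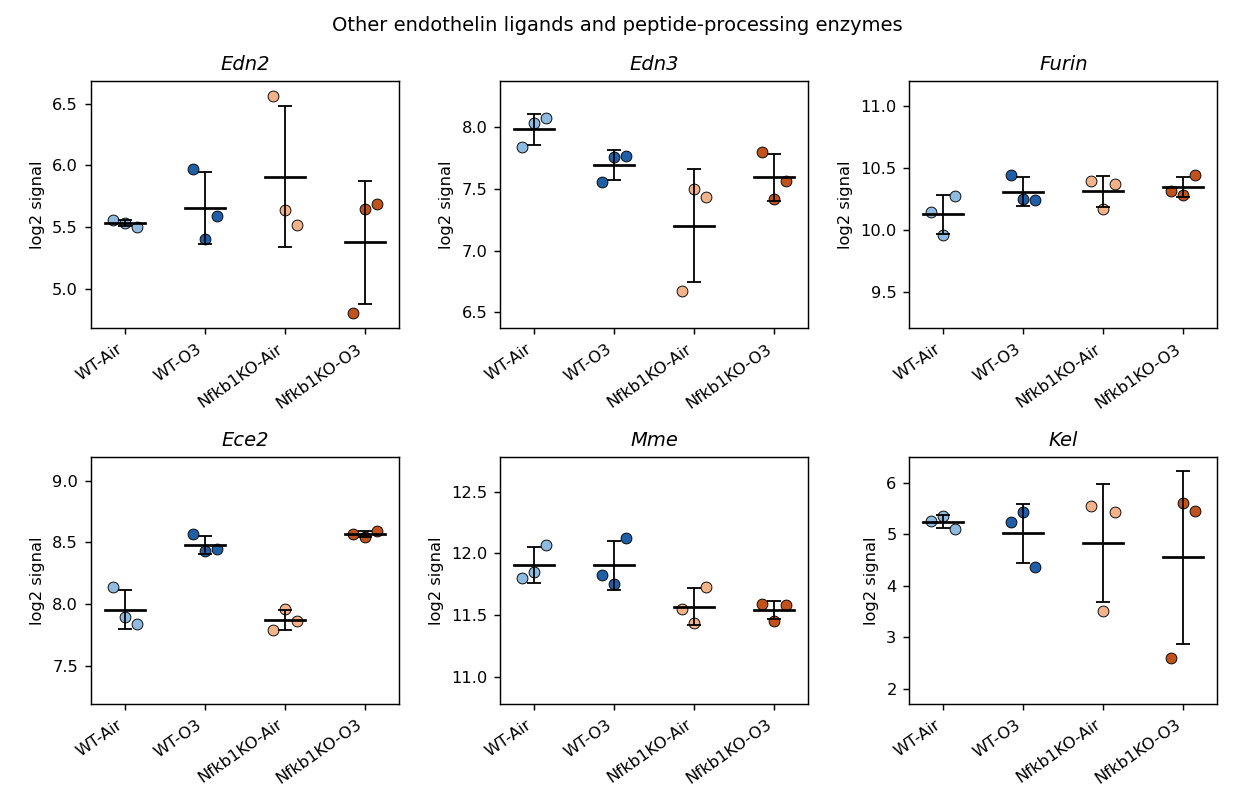
Log2 signal of Edn2, Edn3, Furin, Ece2, Mme and Kel in each array, by group; points are arrays, lines are means and bars are SD (n = 3), and the axis of Kel spans a wider range. The O3 arrays of Ece2 sit at 8.43 or above and its air arrays at 8.14 or below.

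The wider pathway was followed through 5 gene lists that held 82 genes, of which 74 were measured. With O3, 13 of the 74 (17.6%) were called in WT, 7 up and 6 down, against 5.4% of all genes (3.16% up and 2.24% down). In Nfkb1KO 15 (20.3%) were called, 6 up and 9 down, against 6.18% (3.35% up and 2.83% down). Between the genotypes after O3 1 was called, against 0.723% of all genes, and in air and for the interaction 0 were. Without WT-O3 replicate 2 the 13 became 0, and without Nfkb1KO-O3 replicate 1 the 15 became 6. With arrays centred on their medians they became 0 and 5.

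**Figure D5:**
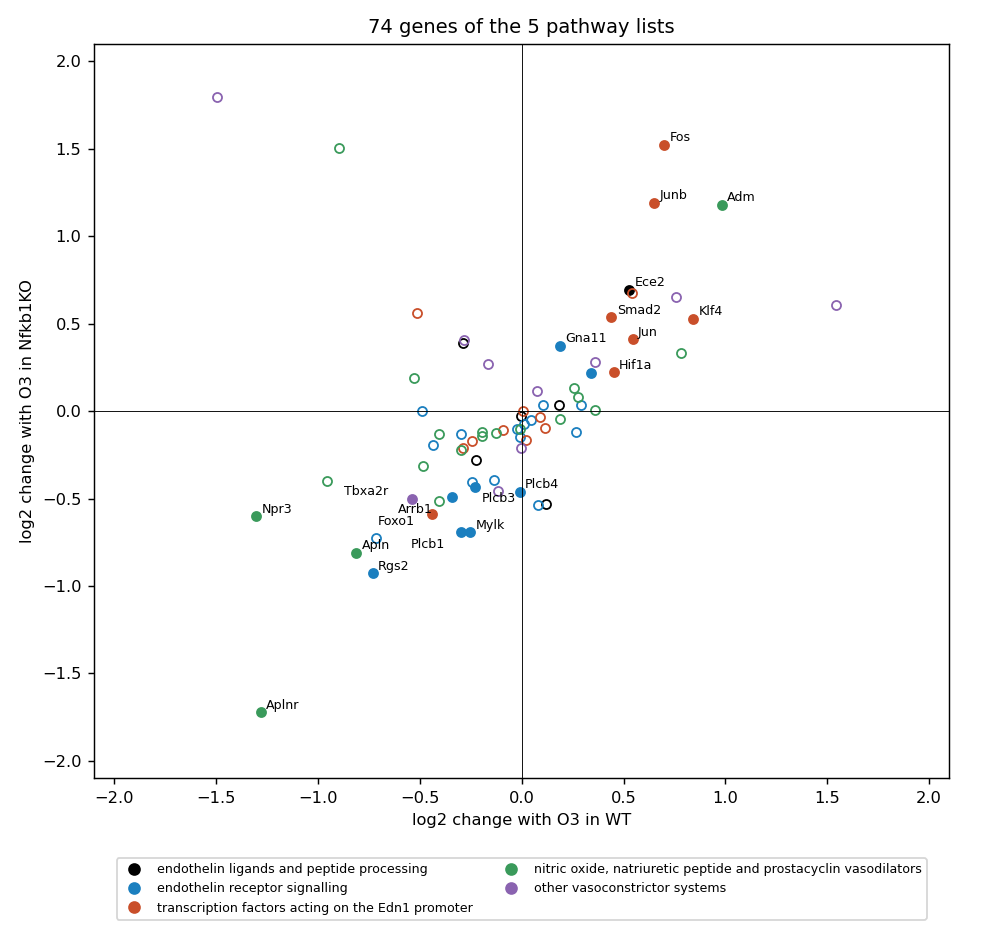
Log2 change with O3 in WT (x axis) and in Nfkb1KO (y axis) of the 74 measured genes of 5 lists; filled points were called in either genotype. Aplnr is lowest in Nfkb1KO, at -1.72, and Fos highest among the named genes, at 1.52.

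Among the 22 measured genes of endothelin receptor signalling, the median O3 difference was -0.08 in WT and -0.17 in Nfkb1KO, against -0.03 and -0.01 over all genes. In WT 2 of the 22 were called, 1 up and 1 down, against 5.4% of all genes. In Nfkb1KO 6 fell and Gna11, the gene of a receptor-coupled G protein, rose, against 6.18% of all genes, and 3 calls were left without Nfkb1KO-O3 replicate 2 and 0 with arrays centred on their medians. Plcb1 encodes the phospholipase C that Gq activates behind both endothelin receptors. It read 10.07, 9.74 and 9.94 in WT-O3 and 9.14, 8.96 and 9.20 in Nfkb1KO-O3, without overlap. Plcb1 was the 1 gene of the lists called between the genotypes after O3, 1.76-fold lower in Nfkb1KO (-0.82 ± 0.13, adjusted p = 0.011 by limma). All 5 of its probe sets pointed down after O3, though their mean, -0.55, was not called (adjusted p = 0.62). The call was lost in 6 of 23 alternatives, and with arrays centred on their medians the difference was -0.78 (adjusted p = 0.15 by limma). In air Plcb1 was -0.42 ± 0.13 (adjusted p = 0.25), but 2 of the 5 probe sets had that sign, with a range of -0.61 to 1.18. With O3 Plcb1 fell by 0.69 ± 0.13 on the log2 scale in Nfkb1KO (adjusted p = 0.010 by limma), or by 0.34 with arrays centred on their medians (adjusted p = 0.32).

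Mylk, the myosin light chain kinase gene of smooth muscle contraction, fell with O3 in Nfkb1KO from 12.66 to 12.88 in air to 11.94 to 12.23, a difference of -0.69 ± 0.10 (adjusted p = 0.0032 by limma), which became -0.22 (adjusted p = 0.67) with arrays centred on their medians. In WT its difference was -0.25 ± 0.10. The smooth muscle markers moved in the same arrays, as given above, and their part was not tested. Rgs2, a brake on Gq signalling, fell in both genotypes, by 0.73 ± 0.17 in WT and 0.93 ± 0.17 in Nfkb1KO (adjusted p = 0.031 and 0.0097 by limma). With arrays centred on their medians these were -0.64 and -0.48 (adjusted p = 0.43 and 0.31 by limma), and the WT call was lost in 10 of 23 alternatives. Arrb1, the gene of a receptor-desensitising arrestin, fell in Nfkb1KO, by 0.49 ± 0.12 (adjusted p = 0.032 by limma). With arrays centred on their medians it was -0.07 (adjusted p = 0.89 by limma), and the call was lost in 11 of 23 alternatives.

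Of 16 transcription factors known to act on the Edn1 promoter, 4 rose and 1 fell with O3 in WT, where 5.4% of all genes were called, and 3 rose and 1 fell in Nfkb1KO, where 6.18% were. Jun, Junb, Hif1a and Klf4 rose in WT, by 0.54, 0.65, 0.45 and 0.84 on the log2 scale (adjusted p = 0.027, 0.024, 0.027 and 0.037 by limma). The calls of Jun, Hif1a and Klf4 were lost in 9, 11 and 11 of 23 alternatives, and Jun was 0.26 as the mean of its 2 probe sets (adjusted p = 0.22). Jun and Junb, with Fos, form AP-1, Hif1a encodes a hypoxia-responsive factor, and Klf4 is an endothelial and epithelial regulator. In Nfkb1KO Fos, Junb and Smad2 rose, by 1.52, 1.19 and 0.54 (adjusted p = 0.0032, 0.0012 and 0.022 by limma), the last being a mediator of TGF-beta signals. The Smad2 call was lost in 7 of 23 alternatives, and the mean of its 2 probe sets was 0.24 (adjusted p = 0.23 by limma). Fos was 12.03, 12.23 and 12.19 in Nfkb1KO-O3 and 10.77, 11.72 and 11.15 in WT-O3, without overlap, but this did not pass the test (0.94 ± 0.22, adjusted p = 0.097 by limma). Nfkb1KO against WT after O3, Junb was 0.24 ± 0.15 and Jun -0.04 ± 0.13 (adjusted p = 0.67 and 0.96 by limma). Foxo1 fell in both genotypes, by 0.44 and 0.59 (adjusted p = 0.042 and 0.011 by limma). As the mean of its 4 probe sets it was 0.13 in WT and -0.0061 in Nfkb1KO (adjusted p = 0.74 and 0.99 by limma). The calls were lost in 15 of 23 alternatives in WT and 3 in Nfkb1KO. The median O3 difference of the 16 was 0.10 in WT and 0.11 in Nfkb1KO.

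Of 20 measured genes of vasodilator systems, which oppose endothelin, 4 were called with O3 in WT, 1 up and 3 down, and 3 in Nfkb1KO, 1 up and 2 down, against 5.4% and 6.18% of all genes. Adm, the gene of the vasodilator adrenomedullin, rose by 0.98 ± 0.25 in WT and 1.18 ± 0.25 in Nfkb1KO (adjusted p = 0.040 and 0.016 by limma). Its call in WT was lost in 13 of 23 alternatives, and the mean of its 2 probe sets there was 0.60 (adjusted p = 0.18). All 6 O3 arrays of Adm, at 8.07 to 8.87, lay above the air arrays, at 6.75 to 8.04. Aplnr, the endothelial apelin receptor gene, fell by 1.28 ± 0.27 in WT and 1.72 ± 0.27 in Nfkb1KO (adjusted p = 0.018 and 0.0043), and Apln, the gene of its ligand, fell by 0.81 ± 0.20 in each (adjusted p = 0.036 and 0.034). With arrays centred on their medians neither gene was called in WT or Nfkb1KO (Aplnr adjusted p = 0.13 and 0.059, Apln 0.17 and 0.21, by limma). The Apln call was lost in 10 of 23 alternatives in each genotype. In WT Npr3, a clearance receptor gene for natriuretic peptides, fell by 1.30 ± 0.28 (adjusted p = 0.019 by limma), and in Nfkb1KO it was -0.60 ± 0.28. Over the 20 measured genes the median O3 difference was -0.25 in WT and -0.12 in Nfkb1KO. Of 10 measured genes of other vasoconstrictor systems, 1 was called with O3 in WT, against 5.4% of all genes. This was Tbxa2r, the thromboxane receptor gene, at -0.54 (adjusted p = 0.042 by limma). Its difference in Nfkb1KO was similar, -0.50, and was not called. The call in WT was lost in 15 of 23 alternatives.

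The genes whose log2 signal over the 12 arrays was most like that of Edn1, among 8783 genes above the median level, were Rhobtb3 (Pearson r = 0.915), Riok2, a kinase gene of ribosome assembly (0.883), Paqr8 (0.872), Fam199x (0.850) and Cpne3 (0.850). For Ednrb they were Prickle2 (0.911), Ybx1 (0.910) and Pros1 (0.909), and for Ece1 Ubr1 (0.878), Apbb2 (0.867) and Ace (0.843), the gene of angiotensin-converting enzyme. Each is the highest of many correlations and the arrays share 4 groups and 1 normalisation, so these are descriptions.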

How the data were processed

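The deposited table held linear MAS5 signal intensities, from 1 Affymetrix whole-genome mouse array (1 colour, biotin) per mouse. The authors computed them with Affymetrix Expression Console, and neither version is given in the sources used here. Low signals carry no detection calls here, and 3 arrays per group limit the precision. The 64 control probe sets were set aside. A floor of 1 was applied before the log2 step, and the 12 arrays were then quantile normalised. Probe sets above the 20th percentile in at least 1 array were kept (42559). The annotation gave 1 symbol for 34958 probe sets, several for 932 and none for 9211. RefSeq GRCm38.p6 held 34754 of the first.

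For a gene with several probe sets (8630 genes), the one with the highest mean was used. limma 3.58.1 in R 4.3.3 fitted 1 mean per group to all 12 arrays with a mean-dependent trend, and p-values were adjusted by Benjamini-Hochberg over 17569 genes, with calls at 0.05. Single probe sets were fitted and adjusted likewise. Compared were the genotypes in air and after O3, air and O3 within each genotype, and the interaction, 5 comparisons in all. An exact test of 3 against 3 arrays cannot go below a two-sided p of 0.1. The labels name 1 mouse per sample, so p-values measure the spread between mice. The fit was tested on simulated data.

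The members, the 14 gene lists, the tests and the rule for named genes were chosen with earlier results of these data known. Named were the members, the 6 ligand and processing genes, up to 4 called genes per other list and comparison with the smallest p, and the genes with the highest Pearson r to each member. Replicate numbers did not pair the arrays. Alternatives covered scaling, the offset, the filter, the choice of probe set, the variance trend, array weights, the arrays fitted, a replicate block and leaving out arrays. A called gene of the receptor signalling list is not reported here. Promoter windows came from RefSeq GRCm38.p6.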

Additional observations from a re-analysis of the deposited data

Results flagged for a closer look

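For Edn1, every WT-O3 array lay above the WT-Air mean and every Nfkb1KO-O3 array below the Nfkb1KO-Air mean, so that the O3 differences had opposite signs and differed by -0.84 on the log2 scale. This difference was not tested, because the arrays after O3 entered the choice of the gene. For Edn3 the directions were the other way round, with every WT-O3 array below its air mean and every Nfkb1KO-O3 array above the mean of Nfkb1KO-Air. That air mean held replicate 1, the array that stood apart, and without it the O3 difference in Nfkb1KO fell to 0.12 from 0.39 and the difference between the genotypes to 0.41. The O3 difference in Nfkb1KO minus that in WT was 0.68 ± 0.33 (SE), and the limma interaction did not pass the test (adjusted p = 0.82). Of the 4 probe sets of Edn3, 2 had the same sign as the fitted one with O3 in WT, and 3 did in Nfkb1KO.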

How the results depend on the processing

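For the 9 tested combinations of member and comparison, 197 of 208 recomputed values kept their sign, 11 turned it, and 0 were called. For the 6 combinations that were described and not tested, 135 of 137 values stayed within the replicate SD and 2 moved by more. Centring the arrays on their medians, with no quantile normalisation, gave O3 differences in Nfkb1KO of 0.16 for Edn1, 0.42 for Ednrb and 0.29 for Ece1, and interactions of -0.58, 0.17 and 0.13. It moved the median of all genes to -0.20 for genotype in air, 0.25 for O3 in Nfkb1KO and 0.25 for the interaction. Without quantile normalisation Ednrb with O3 in Nfkb1KO was 0.049, and as the mean of its probe sets 0.032. Leaving out 1 array at a time gave it -0.14 to 0.090. For Ece1 with O3 in WT the mean of the probe sets gave -0.13, and leaving out 1 array gave -0.058 to 0.27. The cause of these turns was not tested.

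With the replicate number as a block, Edn1 was -0.19 ± 0.18 in air (adjusted p = 0.75 by limma) and no tested member was called. Same-numbered arrays had deviations that correlated at -0.17 to 0.11, and 0 arrays correlated best with their own number. The block lowered the called pathway genes with O3 in WT from 13 to 6, and in Nfkb1KO from 15 to 13. Over all genes the counts of calls ranged, over all alternatives, from 0 to 93 for genotype in air (60 as reported), 51 to 395 after O3 (127), 87 to 1548 for O3 in WT (949), 308 to 1747 for O3 in Nfkb1KO (1086) and 0 to 15 for the interaction (6). The methods' t-test called 1182 genes in air unadjusted and 0 after Benjamini-Hochberg. In the single named genes, Ece2 and Foxo1 with O3 in WT turned to -0.18 and 0.13 as the mean of their probe sets.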
